A study of Mus musculus with 16 samples.

Results

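The genes described here are 32 genes of fatty acid oxidation, ketone body metabolism and the peroxisome, out of 45513 genes counted in the small intestinal epithelium. They were chosen by symbol, from a list of enzymes and transporters and not by a rule on their values, though with earlier results of these data known. All 32 were found in the count tables and passed the filter on low counts. The main sets follow from where the proteins act, with 16 genes of mitochondrial oxidation, 8 of peroxisomal oxidation and 2 of ketone bodies. The other members were 3 acyl-CoA synthetases of fatty acid activation and 3 enzymes with forms in both compartments.

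Both groups came from the same 8 Atoh1(WT)CreERT2 R26RtdTom mice, per the methods of the study homozygous for the *Atoh1* allele, of C57BL/6 background, of either sex and 8 to 16 weeks old. In these mice the tamoxifen-inducible recombinase CreERT2 is produced from the *Atoh1* locus, the gene of a transcription factor of secretory progenitors. The recombinase switches on the red reporter tdTomato (tdTom) for good in cells that express it, so that their progeny stay labelled too. Per the study, mature Paneth and goblet cells also express *Atoh1* and were positive for the reporter, so that mature cells can be labelled directly. Live EpCAM+tdTom+ and EpCAM+tdTom- cells, EpCAM being a surface protein of epithelium, were sorted from each small intestine, which gave 8 tdTom+ and 8 tdTom- libraries, all from tamoxifen-treated mice. Tamoxifen was given at 1 mg per day for 3 days, per the labels and the treatment methods of the study. Each fraction is a mixture of cell types, and the tdTom- fraction is the unlabelled epithelium rather than one lineage.

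Total assigned counts were 17116405 to 25323567 per library. *Atoh1* averaged 62.54 CPM (counts relative to the library total, scaled by TMM factors) in tdTom+ and 0.718 CPM in tdTom- libraries, and of 5 epithelial markers *Epcam*, 942 and 1019 CPM, did not pass the test (log2 fold change -0.11 ± 0.06 SE, adjusted p = 0.11). *Vil1* was lower (-1.42 ± 0.08), and *Cdh1* (0.47 ± 0.07), *Krt8* (0.52 ± 0.08) and *Krt18* (2.72 ± 0.08) were higher. All 8 goblet and Paneth markers were higher in tdTom+ cells, with sums of 119077 to 231064 CPM against 943 to 1390 CPM. All 4 enteroendocrine markers were higher too, with sums of 1358 to 2275 CPM against 342 to 648 CPM, as were all 3 tuft cell markers tested, with sums of 66.1 to 239 CPM against 10.9 to 62.2 CPM. Of the 4 stem cell markers *Lgr5* (0.89 ± 0.15) and *Smoc2* (0.54 ± 0.12) were higher, with sums of 1059 to 2034 CPM against 784 to 2217 CPM, and without mouse 7 *Olfm4* passed as well. All 8 absorptive markers (*Alpi*, *Apoa1*, *Apoa4*, *Fabp2*, *Lct*, *Sis*, *Slc5a1* and *Treh*) were lower, with sums of 1442 to 5377 CPM against 13407 to 35222 CPM, and none was at 0. None of the 4 proliferation markers passed the test. Of the immune markers, the 6 other than *Lyz2*, a near copy of the Paneth gene *Lyz1*, summed to 2.86 to 10.6 CPM in tdTom+ and 5.22 to 48.1 CPM in tdTom- libraries, while *Col1a1*, *Pdgfra*, *Hba-a1* and *Alas2* were at or under the level of 3 counts in every library. *Vim*, a stromal marker, was higher in tdTom+ cells (23.4 against 2.30 CPM). In the tdTom- library of mouse 7 the absorptive sum was 13407 CPM, against 22487 to 35222 CPM in the other 7, and the sum of the stem cell markers was 2217 CPM against 784 to 1305 CPM. Counts and class medians of the 32 genes are therefore given with and without this mouse, and leaving it out moved the log2 fold change of none of them by over 0.07.

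Fatty acids are first activated to acyl-CoA by synthetases. Acyl-CoA of usual chain length enters the mitochondrion through the carnitine shuttle and is shortened there in repeated rounds of dehydrogenation, hydration, a second dehydrogenation and thiolysis, with electrons passed on to the respiratory chain. Peroxisomes run a parallel set of enzymes for very long and branched chains, in which the first step yields hydrogen peroxide, and hand the shortened chains on as carnitine esters. Acetyl-CoA from oxidation can be turned into ketone bodies, and absorptive cells of the small intestine take up, re-esterify and in part burn dietary fat.

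Promoter sequences from RefSeq (GRCm38.p6; 250 bases before and 50 after a start) were matched by symbol for 27 of the 32 genes, and *Acaa2*, *Acat1*, *Crat*, *Decr1* and *Hsd17b4* had no entry. The first stretch is shown because *Hadha* and *Hadhb*, the genes of the 2 subunits of one enzyme whose changes are compared below, are read outward from it in opposite directions. In RefSeq their starts are at 30154980 (minus strand) and 30155253 (plus strand) of chromosome 5, with 272 bases between. The 85 bases that lie outside the exons of both genes in the deposited annotation are at chr5:30155163-30155247 and are given 5′ to 3′ on the plus strand, and capitals mark the GC-box letters GGGCGG.
Hadha to Hadhb: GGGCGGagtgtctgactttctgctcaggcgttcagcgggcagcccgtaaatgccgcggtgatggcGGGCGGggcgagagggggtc
The next stretches are the 120 bases before the start of *Acaa1a* (chr9:119341174-119341293, plus strand) and of *Acaa1b* (chr9:119157094-119157213, minus strand), near-identical thiolase genes that changed by different amounts. Each is given on the strand of its gene, and capitals mark GGGCGG and the CCAAT-box letters ATTGG on either strand.
Acaa1a: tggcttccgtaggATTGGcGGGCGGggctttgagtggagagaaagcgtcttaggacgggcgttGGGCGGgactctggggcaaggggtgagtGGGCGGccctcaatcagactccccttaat
Acaa1b: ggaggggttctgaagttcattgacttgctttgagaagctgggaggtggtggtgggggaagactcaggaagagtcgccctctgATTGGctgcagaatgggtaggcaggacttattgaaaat
These stretches held 4 of the motifs in *Acaa1a* and 1 in *Acaa1b*, and of all 32851 windows 26.5% held GGGCGG and 21.3% ATTGG in the same 120 bases. Over the 250 bases before the start, 148 of 212 aligned bases were identical (69.8%).

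The nuclear receptor half-site AGGTCA, searched on both strands of the 300-base windows, was found in 4 of the 27 genes, *Acadm*, *Acadvl*, *Cat* and *Cpt1a*, beside 18.1% of all genes with a window. The 40 bases around each are shown because these genes differed widely in their change, from *Cat* to *Cpt1a*. They are chr3:153944854-153944893, chr11:70015493-70015532 and chr2:103485335-103485374 on the minus strand and chr19:3323190-3323229 on the plus strand, with the half-site in capitals as it reads on the strand of the gene.
Acadm: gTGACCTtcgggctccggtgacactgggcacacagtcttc
Acadvl: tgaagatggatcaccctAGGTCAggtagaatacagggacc
Cat: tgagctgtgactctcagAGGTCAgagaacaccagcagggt
Cpt1a: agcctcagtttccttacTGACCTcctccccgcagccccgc
The estrogen-related receptor letters TCAAGGTCA, the direct repeat AGGTCANAGGTCA bound by PPAR with RXR, its looser form AGGNCANAGGNCA and the HNF4 letters CAAAGTCCA, of which the first and second contain the half-site and the third overlaps the second, were in 0 of the 27 genes and in 0.466%, 0.0481%, 0.451% and 0.555% of all genes. Absence says only that these letters are not in these windows.

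The comparison asked which of these genes differ between labelled secretory and unlabelled cells of the same mouse. Of the 32 genes, 30 were lower in tdTom+ cells at an adjusted p under 0.01 (edgeR quasi-likelihood test with mouse as a block, Benjamini-Hochberg over the 15323 genes tested), 0 were higher, and *Cpt1a* and *Acsl3* did not pass. Over all genes tested, 55.8% were called, 30.0% lower and 25.8% higher. Higher calls were thus 46.2% of all calls, and 57.0% with at least 10 counts required in every sample. The median log2 fold change of the 32 genes was -1.16, beside 0.02 over all genes. In 28 of the 32 genes every tdTom+ library was below every tdTom- library, which held for 17.0% of all genes, and 30 genes were lower in all 8 mice, as were 27.4% of all genes, with 22.9% higher in all 8. Without mouse 7, 30 genes were again called lower, 1 was called higher (*Acsl3*) and the median was -1.18. In these bulk libraries, fewer cells that express a gene and less RNA of it per cell cannot be told apart. Over the same mice the absorptive marker sum in tdTom+ cells was 9.32% to 16.7% of that in tdTom- cells. How far the share of absorptive cells accounts for the differences below was not tested.

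The classes differed in the size of their change. The 8 peroxisomal genes were all lower, with a median log2 fold change of -1.69 and a range of -2.30 to -1.11, and in each of them the fractions did not overlap. Of the 16 mitochondrial genes 15 were lower, with a median of -1.12 and a range of -1.90 to -0.17, and 15 did not overlap. Both ketone body genes were lower, with a median of -0.82. The median log2 ratio of the peroxisomal genes was below that of the mitochondrial genes in 8 of 8 mice, by 0.24 to 0.72, with the gap of 0.24 in mouse 7. Without mouse 7 the medians were -1.74 for peroxisomal, -1.13 for mitochondrial and -0.81 for ketone body genes. These class medians are descriptions of the listed genes, and no test was made between classes.

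**Figure D1:**
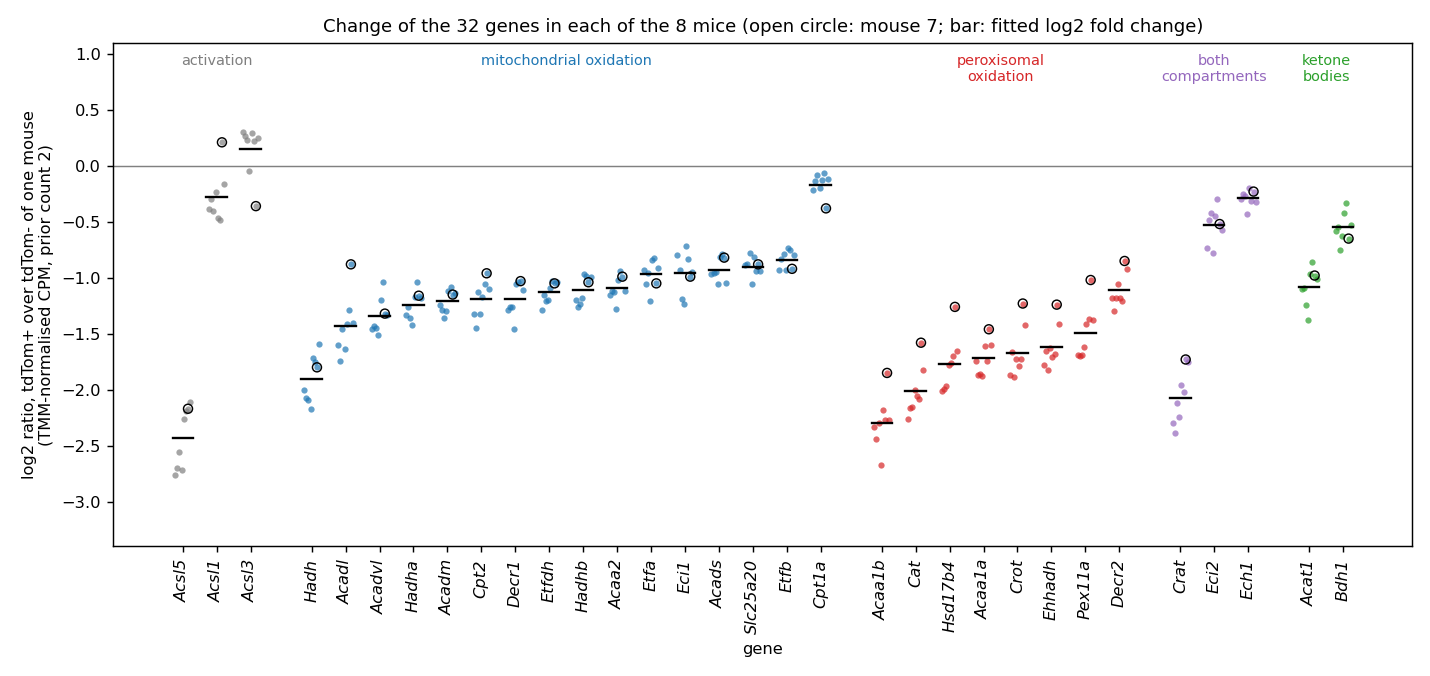
Log2 ratio of tdTom+ over tdTom- (vertical axis) for each of the 32 genes (horizontal axis), with 1 point per mouse, mouse 7 ringed and the fitted log2 fold change as a bar. The bars of the peroxisomal genes lie between -2.30 and -1.11, those of most mitochondrial genes near -1, and those of *Acsl3* and *Cpt1a* near 0.

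Summed over the class, mitochondrial transcripts were 1169 to 1631 CPM in tdTom+ and 2514 to 3551 CPM in tdTom- libraries. The tdTom+ sum was 39.1% to 47.5% of that in tdTom- cells of the same mouse. For the peroxisomal genes the sums were 348 to 557 CPM and 890 to 1960 CPM, and the tdTom+ sum was 26% to 39.1%, with a median of 28.2%. The upper end was mouse 7, and in the other 7 mice the share was 26% to 32.5%. The sums of *Bdh1* and *Acat1* were 163 to 236 CPM and 324 to 356 CPM, a tdTom+ share of 49.8% to 66.3%. In the tdTom- library of mouse 7, the lowest in absorptive markers, the mitochondrial sum (2514 CPM) and the peroxisomal sum (890 CPM) were the lowest of the 8. The ketone body sum (350 CPM) was within the range of the others.

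**Figure D2:**
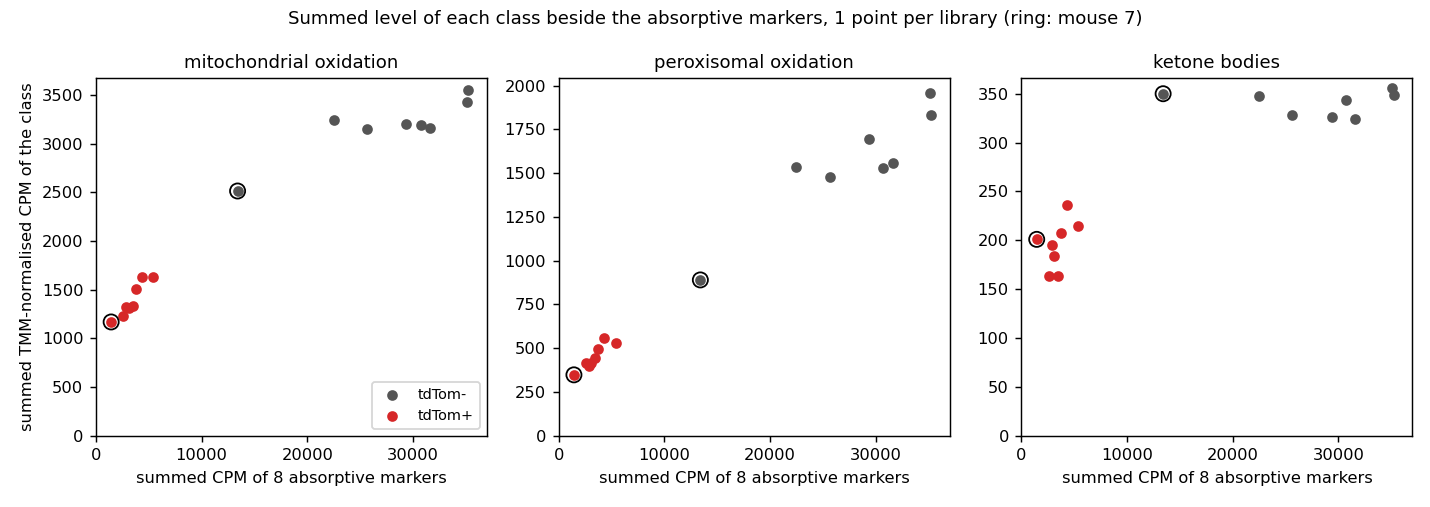
Summed CPM of the mitochondrial, peroxisomal and ketone body genes (vertical axes) against the summed CPM of 8 absorptive markers (horizontal axes), with 1 point per library and mouse 7 ringed. The fractions separate on both axes, and the tdTom- library of mouse 7 lies apart at 13407 CPM of absorptive markers, low for the mitochondrial and peroxisomal sums and within the range of the others for ketone bodies.

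Of the 3 acyl-CoA synthetases, *Acsl5* had the highest level and the largest change. *Acsl5* (chromosome 19, 55253369 to 55296627, plus strand), a synthetase abundant in intestinal epithelium, ranged from 220 to 472 CPM with a median of 305 in tdTom+ and from 987 to 2262 CPM with a median of 1760 in tdTom- libraries. The fractions did not overlap, and mouse 7 had the lowest value in the tdTom- group. The log2 fold change was -2.43 ± 0.10 (SE, adjusted p = 6.4e-11), the largest fall of the 32 genes. *Acsl1*, a synthetase of oxidative and fat-storing tissues, ranged from 62.4 to 79.3 CPM (median 69.1) and from 59.0 to 102 CPM (median 89.6). Those ranges overlapped, the gene was lower in 7 of 8 mice, and its log2 fold change of -0.28 ± 0.07 passed narrowly (adjusted p = 0.0042). Mouse 7 was the 1 with a higher ratio (0.21), and without it the log2 fold change was -0.35 ± 0.05 (adjusted p = 8.1e-05). It did not pass without mouse 1, 2, 3, 5 or 6, with values of -0.28 to -0.16. *Acsl3*, a synthetase of the endoplasmic reticulum and lipid droplets, was at 26.3 to 36.8 CPM (median 34.4) and 24.5 to 33.7 CPM (median 29.3). It overlaps *Utp14b* on the same strand and shares 3.59% of its 50-base stretches with that gene, so its count is uncertain to that extent. The log2 fold change of *Acsl3* was 0.15 ± 0.08 (adjusted p = 0.11), with mouse 7 at -0.36, and without mouse 7 it was 0.22 ± 0.06 and passed (adjusted p = 0.0036). The difference between *Acsl5* and *Acsl3* in log2 ratio was -2.58 ± 0.40 (SD, n = 8 mice, negative in 8 of 8, exact two-sided sign-flip test, adjusted p = 0.013 over 10 pairs), and without mouse 7 it was -2.69 ± 0.27 (n = 7). This pair and those below were chosen with earlier results of these data known, which their p-values do not allow for.

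The genes of the carnitine shuttle differed in their change. *Cpt1a* (chromosome 19, 3323301 to 3385732, plus strand), the outer membrane palmitoyltransferase that controls entry of fatty acids, had 153 to 180 CPM with a median of 170 in tdTom+ and 180 to 199 CPM with a median of 189 in tdTom- libraries. It was lower in 8 of 8 mice, but by a log2 fold change of only -0.17 ± 0.05 (adjusted p = 0.011), and under total-count scaling, DESeq2 or limma-voom it passed. *Cpt2*, its inner membrane counterpart, had 52.7 to 69.6 CPM (median 65.8) and 103 to 173 CPM (median 148), without overlap, a log2 fold change of -1.19 ± 0.06 (adjusted p = 7.9e-10). The ratio of *Cpt1a* thus fell less than that of *Cpt2*, by 1.02 ± 0.20 on the log2 scale (SD, n = 8 mice, positive in 8 of 8, exact sign-flip adjusted p = 0.013), with the smallest difference, 0.58, in mouse 7 and 1.09 ± 0.11 without it (n = 7). *Slc25a20*, the carnitine-acylcarnitine carrier between them, had 30.8 to 53.2 CPM against 56.6 to 93.4 CPM and a log2 fold change of -0.90 ± 0.05 (adjusted p = 1.3e-09).

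The 4 acyl-CoA dehydrogenases of the first step were lower, with log2 fold changes, in order of the chain length they prefer, of -1.34 for *Acadvl* (very long), -1.43 for *Acadl* (long), -1.21 for *Acadm* (medium) and -0.93 for *Acads* (short), with SE of 0.05 to 0.08. *Acadvl* had 75.6 to 124 CPM (median 93.7) in tdTom+ and 189 to 266 CPM (median 253) in tdTom- libraries, and *Acads* 41.4 to 53.8 CPM (median 44.6) and 81.5 to 96.2 CPM (median 84.8). In none of the 4 did the fractions overlap. The test between *Acadm* and *Acadl* gave a difference in log2 ratio of 0.22 ± 0.22 (SD, n = 8 mice, positive in 7 of 8, exact sign-flip adjusted p = 0.0434). Mouse 7 was the exception at -0.27, and without it the difference was 0.29 ± 0.11 (n = 7, exact sign-flip adjusted p = 0.0223). Without any other single mouse it did not pass, with 0.18 to 0.23. With no replicate block it did not pass either (0.22, exact permutation adjusted p = 0.0511).

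Among the later steps *Hadh* stood apart. *Hadh* (chromosome 3, 131233419 to 131272101, minus strand), the short-chain 3-hydroxyacyl-CoA dehydrogenase, had 148 to 270 CPM with a median of 177 in tdTom+ and 514 to 889 CPM with a median of 706 in tdTom- libraries. The fractions were widely apart, and the log2 fold change of -1.90 ± 0.08 (adjusted p = 7.6e-11) was the largest fall of the 16 mitochondrial genes. *Acaa2*, the mitochondrial thiolase, had 75.3 to 131 CPM (median 98.9) and 150 to 256 CPM (median 216), a log2 fold change of -1.09 ± 0.05 (adjusted p = 4.5e-10). *Eci1* and *Decr1*, which handle the double bonds of unsaturated fatty acids, had log2 fold changes of -0.96 ± 0.06 and -1.19 ± 0.06.

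*Hadha* and *Hadhb*, which encode the subunits of the mitochondrial trifunctional protein for long chains, fell by similar amounts, with a small difference between them. *Hadha* had 139 to 190 CPM (median 162) in tdTom+ and 310 to 427 CPM (median 389) in tdTom- libraries, and *Hadhb* had 78.3 to 107 CPM (median 84.8) and 171 to 211 CPM (median 193). Neither gene overlapped between fractions. Their log2 fold changes were -1.24 ± 0.06 and -1.11 ± 0.05, and the difference in log2 ratio, *Hadha* minus *Hadhb*, was -0.13 ± 0.08 (SD, n = 8 mice, negative in 7 of 8, exact sign-flip adjusted p = 0.0195). These are the genes that share the short stretch on chromosome 5 printed above. *Hadhb* shares 19.7% of its 50-base stretches with other transcripts, chiefly *Gm13910*, which itself averaged 19.5 CPM in tdTom+ and 42.5 CPM in tdTom- libraries, so its count is uncertain to that extent.

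The genes that pass electrons from the dehydrogenases to the respiratory chain were all lower. *Etfa* and *Etfb*, the subunits of the electron transfer flavoprotein, had log2 fold changes of -0.97 ± 0.06 and -0.84 ± 0.05, and *Etfdh*, its oxidoreductase in the inner membrane, -1.13 ± 0.05 (adjusted p = 1.7e-10). *Etfdh* was at 57.4 to 76.8 CPM (median 64.3) in tdTom+ and 119 to 156 CPM (median 146) in tdTom- libraries. The difference in log2 ratio, *Etfa* minus *Etfb*, was -0.14 ± 0.09 (SD, n = 8 mice, negative in 7 of 8, exact sign-flip adjusted p = 0.0195). *Etfb* shares 44.8% of its 50-base stretches with other transcripts of the GENCODE annotation, chiefly Gm45233, which overlaps it on the same strand and is not among the counted genes. Reads from the shared part would have been counted as *Etfb*, so this difference and the level of *Etfb* given below are uncertain to that extent.

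**Figure D3:**
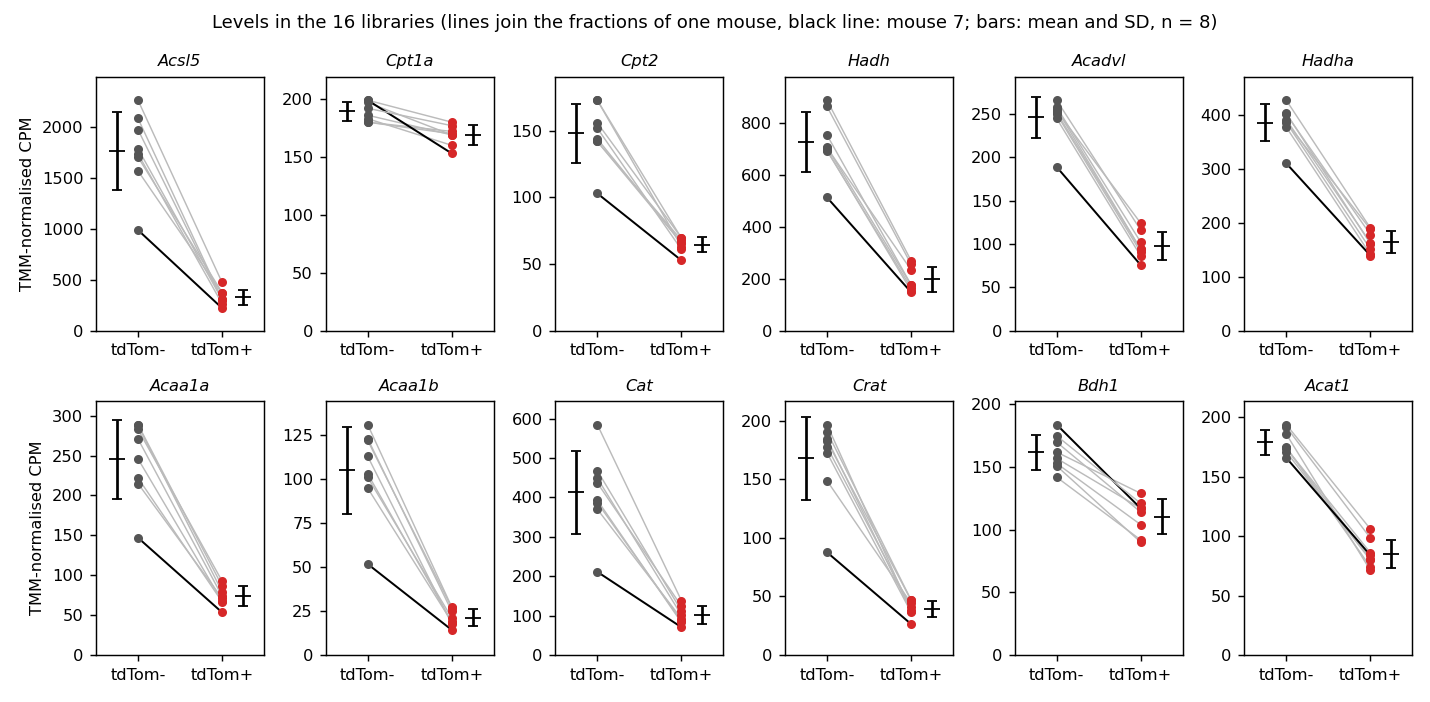
TMM-normalised CPM (vertical axes, starting at 0) of 12 of the genes in tdTom- and tdTom+ libraries, with lines joining the fractions of a mouse, mouse 7 in black and bars for the mean and SD (n = 8). *Cpt1a* lies at 153 to 199 CPM over both fractions, whereas *Acsl5* falls from 987 to 2262 CPM to 220 to 472 CPM.

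Of the peroxisomal genes *Acaa1b*, one of the thiolase genes, and *Cat* fell most. *Acaa1b* (chromosome 9, 119148023 to 119157093, minus strand) had 14.2 to 27.2 CPM with a median of 19.9 in tdTom+ and 51.7 to 131 CPM with a median of 108 in tdTom- libraries, a log2 fold change of -2.30 ± 0.08 (adjusted p = 1.3e-11). *Acaa1a* (chromosome 9, 119339676 to 119350299, plus strand) had 53.3 to 92.5 CPM (median 72.3) and 147 to 289 CPM (median 259), a log2 fold change of -1.72 ± 0.06 (adjusted p = 2.3e-11). Neither gene overlapped between fractions, and in both the lowest tdTom- library was that of mouse 7. The fall was smaller for *Acaa1a* than for *Acaa1b* by 0.57 ± 0.12 (SD, n = 8 mice, positive in 8 of 8, exact sign-flip adjusted p = 0.013). The copies share sequence, 30.5% of the 50-base stretches of *Acaa1b* being found in *Acaa1a* and 12.4% of those of *Acaa1a* in *Acaa1b*, so that reads may have been divided between them. Against the mitochondrial thiolase *Acaa2*, *Acaa1a* fell more by 0.63 ± 0.12 (SD, n = 8 mice, in 8 of 8, exact sign-flip adjusted p = 0.013).

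*Cat* (chromosome 2, 103453849 to 103485160, minus strand), the catalase that breaks down the hydrogen peroxide of peroxisomal oxidation, had 70.3 to 138 CPM with a median of 96.5 in tdTom+ and 211 to 585 CPM with a median of 415 in tdTom- libraries. Its log2 fold change was -2.01 ± 0.08 (adjusted p = 4.2e-11), without overlap and with mouse 7 lowest in the tdTom- group. *Ehhadh* and *Hsd17b4*, the bifunctional enzymes of the middle steps, had log2 fold changes of -1.62 ± 0.07 and -1.77 ± 0.08. *Ehhadh* had 47.8 to 69.5 CPM (median 51.2) and 117 to 227 CPM (median 168), and *Hsd17b4* 79.2 to 122 CPM (median 90.7) and 190 to 396 CPM (median 359). The log2 ratio of *Ehhadh* exceeded that of *Hsd17b4* by 0.15 ± 0.12 (SD, n = 8 mice, positive in 8 of 8, exact sign-flip adjusted p = 0.013), a difference that did not pass with no replicate block (exact permutation adjusted p = 0.0565).

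*Crot*, which makes carnitine esters of shortened chains for export from the peroxisome, had 42.1 to 69.3 CPM (median 55.7) in tdTom+ and 98.6 to 233 CPM (median 177) in tdTom- libraries, a log2 fold change of -1.67 ± 0.08. *Pex11a*, a factor of peroxisome division, had 13.6 to 17.1 CPM (median 14.8) and 28.1 to 52.2 CPM (median 44.3), a log2 fold change of -1.49 ± 0.08. *Decr2*, the peroxisomal dienoyl-CoA reductase, had 26 to 33 CPM (median 30.3) and 47.0 to 75.1 CPM (median 65.4), and its log2 fold change of -1.11 ± 0.06 was the smallest of the peroxisomal genes. The difference in log2 ratio between *Decr1* and *Decr2* did not pass (-0.08 ± 0.19 on the log2 scale, SD, n = 8 mice, range -0.40 to 0.17, exact sign-flip adjusted p = 0.281), which does not show that they changed alike.

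The 3 enzymes with forms in both compartments ranged from -0.29 for *Ech1* to -2.07 for *Crat* in log2 fold change. *Crat* (chromosome 2, 30400471 to 30415813, minus strand), carnitine acetyltransferase, had 26.4 to 47.0 CPM with a median of 39.2 in tdTom+ and 87.8 to 197 CPM with a median of 180 in tdTom- libraries, a log2 fold change of -2.07 ± 0.08 (adjusted p = 5e-11). *Eci2*, an enoyl-CoA isomerase, had 30.9 to 43.8 CPM (median 34.7) and 46.0 to 55.4 CPM (median 51.2), a log2 fold change of -0.53 ± 0.06 (adjusted p = 2.9e-06). *Ech1*, a dienoyl-CoA isomerase, had 94.5 to 137 CPM (median 119) and 111 to 157 CPM (median 150), which overlapped, and its log2 fold change of -0.29 ± 0.05 passed (adjusted p = 9.5e-05). *Eci2* has close relatives, *Eci3* among them, and shares 6.8% of its 50-base stretches with other transcripts.

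**Figure D4:**
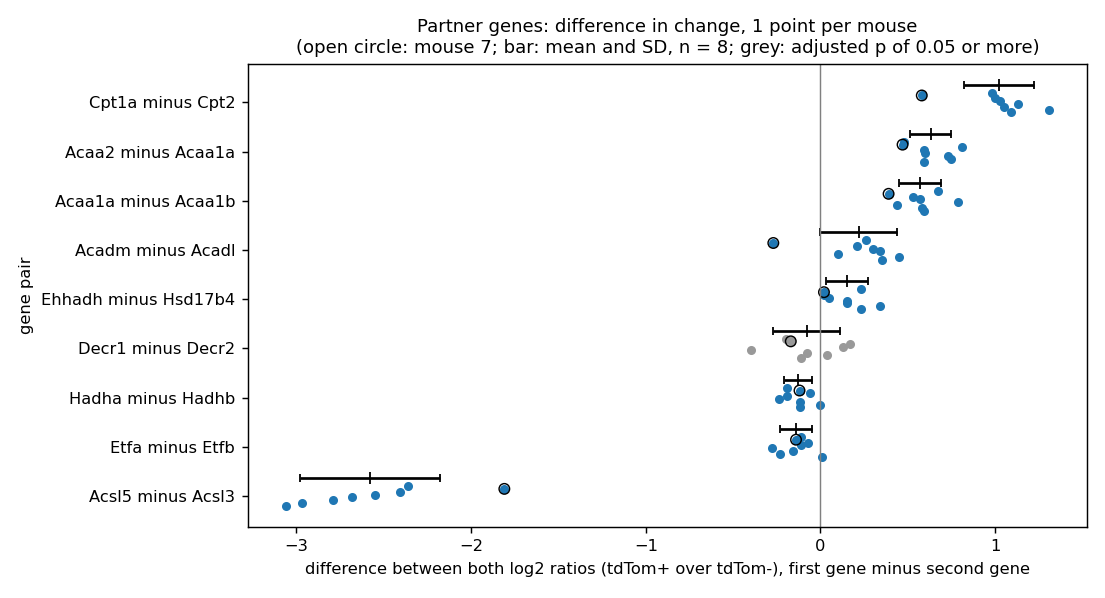
Difference between the log2 ratios (tdTom+ over tdTom-) of both genes of 9 pairs (horizontal axis), with 1 point per mouse, mouse 7 ringed and bars for the mean and SD (n = 8). The points of *Cpt1a* minus *Cpt2* lie between 0.58 and 1.31, those of *Hadha* minus *Hadhb* between -0.24 and 0, and those of *Decr1* minus *Decr2* on both sides of 0.

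Both ketone body genes were lower, *Acat1* by about the median of the mitochondrial genes and *Bdh1* by less. *Acat1*, the mitochondrial thiolase that joins acetyl-CoA to acetoacetyl-CoA, had 71.2 to 106 CPM (median 82.5) in tdTom+ and 166 to 194 CPM (median 175) in tdTom- libraries, a log2 fold change of -1.08 ± 0.06 (adjusted p = 2.8e-09). *Bdh1*, which interconverts acetoacetate and hydroxybutyrate, had 90.0 to 129 CPM (median 115) and 142 to 184 CPM (median 159), a log2 fold change of -0.55 ± 0.06 (adjusted p = 9.6e-07). Neither overlapped between fractions.

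Of 8 other ketone body genes 7 were tested, of which 4 were lower and 1 higher, beside 30.0% and 25.8% of all genes. Their median log2 fold change was -0.54. The monocarboxylate transporter genes *Slc16a6* (-1.12 ± 0.15) and *Slc16a1* (-0.54 ± 0.07) were lower, the first at -1.27 ± 0.10 without mouse 7, whose ratio was 0.01. *Aacs*, which activates acetoacetate in the cytosol for lipid synthesis, was higher, at 74.0 to 111 CPM in tdTom+ and 17 to 47.3 CPM in tdTom- libraries (log2 fold change 1.95 ± 0.15, adjusted p = 6.2e-08). *Bdh2* was lower (-2.66 ± 0.32) but near the detection limit, at 0 to 0.367 CPM in tdTom+ and 0.639 to 1.60 CPM in tdTom- libraries.

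Levels between genes were compared per kilobase of exon, over the union of exons in the deposited annotation. That union can be longer than the transcripts present, so the order of genes depends on the annotation. It was 4977 bases for *Hadh*, 2613 for *Cat* and 1515 for *Acaa2*, whose mean CPM in tdTom- libraries were 728, 412 and 219. In tdTom- cells the highest level was that of *Acsl5*, 559 ± 122 CPM per kb (SD, n = 8). *Cat* (158 ± 40.4), *Hadh* (146 ± 23.3) and *Acaa2* (145 ± 21.8) followed and did not differ beyond their spread, and *Acsl3* was lowest (6.82 ± 0.62). In tdTom+ cells *Acsl5* was again highest (103 ± 24.5 CPM per kb), followed by *Acaa2* (67.7 ± 10.9), *Etfb* (52.9 ± 5.61), *Ech1* (51.9 ± 5.31) and *Etfa* (47.5 ± 6.0), the last 3 within their spread of each other. *Cat* and *Hadh*, at 38.6 ± 8.70 and 39.7 ± 9.69 CPM per kb, had lower means than these 3 but were within their spread of *Etfa*. *Pex11a* had the lowest mean (6.39 ± 0.55).

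Outside the 32 genes, 104 other genes of the pathway, its regulators and fatty acid synthesis were listed, of which 97 were tested. They comprised 65 that were lower and 13 that were higher, with a median log2 fold change of -0.64, beside the 30.0% and 25.8% of all genes. Of these, 36 were lower and 5 higher with an added limit of 1 on the absolute log2 fold change, and 65 lower and 14 higher without mouse 7. The share of all genes past the added limit was not computed, so the 36 and 5 have no background beside them. The remaining genes listed under peroxisomal oxidation were mostly lower, 15 of 17 being lower and 1 higher, or 2 without mouse 7, with a median of -1.46. *Pecr*, a trans-2-enoyl-CoA reductase, was the 1 that was higher (0.44 ± 0.11). Genes outside the naming rule, namely *Pecr*, *Slc16a1*, *Pex2*, *Acsf3*, *Acss1*, *Acaca*, *Fasn*, *Scd2*, *Elovl5*, *Ppard*, *Rxrb*, *Hnf4a*, *Lpin1*, *Sirt1*, *Sirt3* and *Mlycd*, were named after their values were seen. Named genes of this list that were lower were *Ephx2*, an epoxide hydrolase (-2.89 ± 0.10), *Eci3* (-2.58 ± 0.09) and *Scp2*, a sterol carrier and thiolase (-1.85 ± 0.08).

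The 13 tested genes listed under mitochondrial oxidation outside the members, not all of which act only there, were less uniform. Of them 8 were lower and 1 higher, beside 30.0% and 25.8% of all genes, with a median of -0.46. *Slc22a5*, the plasma membrane carnitine transporter, and *Acad11*, a dehydrogenase of long chains, each had a log2 fold change of -1.68, with SE of 0.08 and 0.07, and *Acot2*, a thioesterase with a close copy in *Acot1*, one of -0.94 ± 0.09. *Acadsb*, which acts on short branched chains from isoleucine rather than on straight fatty acids, was the 1 that was higher, at 28.1 to 43.3 CPM in tdTom+ and 7.26 to 11.9 CPM in tdTom- libraries (1.88 ± 0.06, adjusted p = 9e-12).

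Of 18 genes of peroxisome biogenesis, 11 were lower and 1 higher, beside 30.0% and 25.8% of all genes, with a median log2 fold change of -0.39. The 1 that was higher, *Pex2* (0.18 ± 0.05, adjusted p = 0.0087), did not pass without mouse 1, 2, 5, 7 or 8. *Pex16* and *Pex19*, which bring membrane proteins to the peroxisome, had -1.41 ± 0.06 and -1.17 ± 0.06, *Pxmp2*, a channel of the membrane, -1.09 ± 0.17, and *Pex13*, part of the import pore, -0.87 ± 0.06. The 7 further acyl-CoA synthetases went mostly the other way, 4 being higher and 2 lower, with a median of 0.47. *Acsl4*, which prefers arachidonate, *Acsl6* and *Acss3* were higher (1.5 ± 0.12, 0.87 ± 0.19, or 0.67 ± 0.10 without mouse 7, and 1.19 ± 0.23), as was the acetate-activating *Acss1* (0.47 ± 0.06), and *Acsf2* and *Acsf3* were lower (-1.51 ± 0.14 and -0.78 ± 0.07). The level of *Acss3* was near the detection limit, at 0.551 to 1.65 CPM in tdTom+ and 0.302 to 0.718 CPM in tdTom- libraries, which overlapped.

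**Figure D5:**
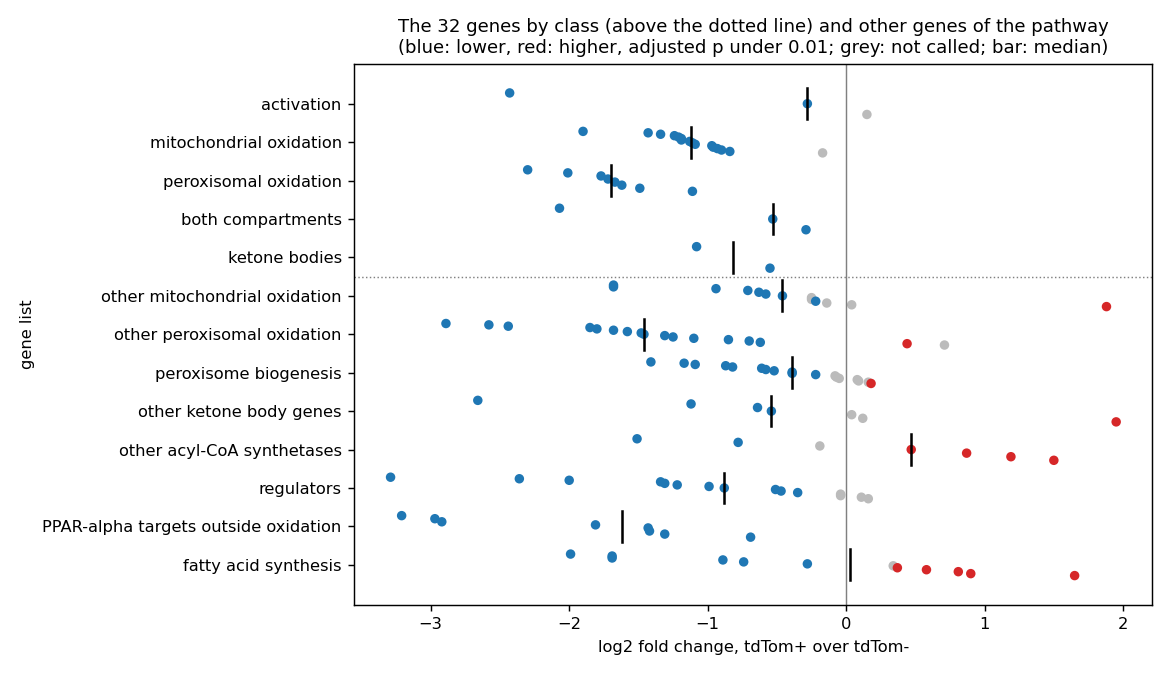
Log2 fold change (horizontal axis) of every tested gene in the classes of the 32 genes, above the dotted line, and in 8 lists of related genes, below it, with blue for lower, red for higher, grey for not called and a bar at the median. The medians of the peroxisomal lists are -1.69 and -1.46, those of the mitochondrial lists -1.12 and -0.46, and fatty acid synthesis is split around 0.03.

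Of 15 listed regulators of these genes 11 were lower and 0 higher, beside 30.0% and 25.8% of all genes, with a median of -0.88. Among the 15 were 12 transcription factors and coactivators, of which 8 were lower, with *Lpin1*, which is also an enzyme, counted among the 12. The other 3 were enzymes and were lower, namely the deacetylases *Sirt1* (-0.35 ± 0.06) and *Sirt3* (-1.31 ± 0.08) and the malonyl-CoA decarboxylase *Mlycd* (-0.47 ± 0.07). The 4 that did not pass were *Ppard* (0.11 ± 0.06), *Rxrb* (-0.04 ± 0.05), *Hnf4a* (-0.04 ± 0.06) and *Lpin1* (0.16 ± 0.12). *Creb3l3*, a membrane-bound factor of fasting metabolism, had 20.7 to 82.5 CPM (median 45.9) in tdTom+ and 199 to 593 CPM (median 534) in tdTom- libraries, a log2 fold change of -3.29 ± 0.10 (adjusted p = 4.8e-12). *Ppargc1a*, a coactivator of mitochondrial genes, had -2.36 ± 0.13, *Hnf4g* -2.0 ± 0.08, *Esrra*, which encodes an estrogen-related receptor, -1.34 ± 0.05, and *Ppara*, the fatty acid sensor, -1.22 ± 0.07. Of 10 known targets of PPAR-alpha outside mitochondrial and peroxisomal oxidation 8 were tested. All 8 were lower, with a median of -1.62, beside 30.0% of all genes. Of the 8, 7 were lower in all 8 mice and 5 did not overlap between fractions, beside 27.4% and 17.0% of all genes. Among these, *Vnn1*, a pantetheinase, had -3.21 ± 0.11, *Cyp4a10*, a fatty acid hydroxylase with near copies, -2.97 ± 0.15, *Fabp1*, the fatty acid binding protein, -2.92 ± 0.13, and *Angptl4*, a lipase inhibitor, -1.81 ± 0.07. The level of *Cyp4a10* was low, at 0.2 to 1.31 CPM in tdTom+ and 0.821 to 9.42 CPM in tdTom- libraries, which overlapped.

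Fatty acid synthesis, the opposite process, was divided, with 6 of 12 tested genes lower and 5 higher, beside 30.0% and 25.8% of all genes. The median log2 fold change was 0.03. *Me1*, a source of NADPH, the carbohydrate-sensing factor gene *Mlxipl* and the desaturase gene *Scd1* were lower (-1.99 ± 0.07, -1.69 ± 0.08 and -1.69 ± 0.13). *Acly*, which makes cytosolic acetyl-CoA from citrate, was higher (1.65 ± 0.06, adjusted p = 5.4e-11), as were the carboxylase and synthase genes *Acaca* and *Fasn* (0.58 ± 0.08 and 0.90 ± 0.10), *Scd2* (0.81 ± 0.16) and *Elovl5* (0.37 ± 0.07). For *Scd2* mouse 7 was the 1 with a lower ratio (-0.33), and without it the value was 0.98 ± 0.11. With no replicate block, 3 of these were called higher rather than 5.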

How the data were processed

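RNA was purified from the sorted cells with an RNeasy Micro Plus kit and sequenced from TruSeq Stranded mRNA libraries. Unnormalised counts of each Ensembl gene were deposited, made by the authors by alignment to GRCm38.p3 with TopHat2 2.1.1 (submitters' notes, which also name Subread 1.5.2) and by featureCounts 1.5.0-p1 per the file headers, over exons, on the reverse strand and for primary alignments only. Reads shared by near-identical genes may thus be divided arbitrarily.

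Counts were analysed in R 4.3.3 with edgeR 4.0.16. Genes were kept by filterByExpr (15323), scaled with TMM factors and compared by the quasi-likelihood test with mouse as a block, Benjamini-Hochberg adjustment and a threshold of 0.01 on the adjusted p, after a p of 0.01 that the study gives without naming an adjustment. SE is the log2 fold change divided by the square root of F. Level is given as TMM-normalised CPM, where 3 counts equal 0.118 to 0.175 CPM. Pairs of genes were compared by the difference of their log2 ratios (prior count 2) with all 256 sign patterns of an exact two-sided sign-flip test, whose smallest p is 0.00781, adjusted over the 10 pairs with a threshold of 0.05.

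The pairing comes from the mouse number in the titles and the series design. Deviations from the group means correlated by 0.426 on average between the fractions of a mouse (0.245 to 0.634) and by -0.0569 between different mice. Because deviations from a group mean cancel out over its mice, the second value follows largely from the first. Of the 8 libraries per group, 8 tdTom- and 7 tdTom+ libraries correlated best with the other fraction of their own mouse. The method was tested on simulated data in which far fewer genes changed than were called here, so that test does not cover scaling under so broad a difference. Named are the 32 genes, the genes of the pairs, *Atoh1*, *Epcam*, *Ppara*, *Ppargc1a*, the cell type markers and, in each related list, the up to 4 genes past the threshold with the largest absolute log2 fold change and at least 1 CPM in the higher fraction. Some genes of this rule and 1 of the 10 pairs were tested with the others but are not reported here. Genes, lists, pairs and this rule were chosen with earlier results of these data known. Alternatives were no replicate block, relative log expression or total counts as scaling, DESeq2 1.42.0 and limma-voom (limma 3.58.1) with the replicate block, every gene kept whatever its counts, a minimum of 10 counts in each sample, an adjusted p under 0.05, a limit of 1 on the absolute log2 fold change, a prior count of 0.5 for pairs, and leaving out each mouse.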

Additional observations from a re-analysis of the deposited data

Results flagged for a closer look

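In 31 of 139 sets of 8 values, 1 library lay apart from the other 7 by more than Dixon's 95% limit, where 7.0 such sets arise by chance. Mouse 7 was the library concerned in all 31 of these sets, and sets of genes that rise and fall together are not independent. In the tdTom- fraction it was the lowest of the 8 in 28 sets. Among the 32 genes its log2 CPM was 9.95 for *Acsl5*, 6.68 for *Cpt2*, 5.83 for *Slc25a20*, 7.56 for *Acadvl*, 6.74 for *Acadm*, 8.28 for *Hadha*, 9.0 for *Hadh*, 7.23 for *Acaa2*, 6.7 for *Decr1*, 7.2 for *Acaa1a*, 5.7 for *Acaa1b*, 7.57 for *Hsd17b4*, 5.56 for *Decr2*, 6.62 for *Crot*, 7.72 for *Cat*, 6.8 for *Ech1* and 6.46 for *Crat*. Among related genes it was 6.2 for *Acad11*, 3.01 for *Acot2*, 7.81 for *Ephx2*, 8.66 for *Scp2*, 5.18 for *Pex16*, 0.46 for *Acsl6*, 7.41 for *Esrra*, -0.12 for *Cyp4a10*, 10.33 for *Fabp1*, 2.93 for *Angptl4* and 4.4 for *Me1*. In the tdTom+ fraction mouse 7 was the lowest for *Crat* at 4.73 and *Acad11* at 4.94, on the same scale.

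Over the 32 genes, the tdTom- library of mouse 7 held the lowest value for 26, beside 28.4% of all genes tested, and its tdTom+ library held the lowest for 20, beside 19.3% of all genes. The same tdTom- library had the lowest absorptive marker sum (13407 CPM) and the highest sums of stem cell markers (2217 CPM) and proliferation markers (525 CPM, against 283 to 413 CPM in the others). The part of this in the low values was not tested. In the pair of *Cpt1a* and *Cpt2*, the difference in log2 ratio was lowest in mouse 7, at 0.58.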

How the results depend on the processing

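Over 480 combinations of the 32 genes with an alternative, 469 kept their direction and their side of the threshold, 6 no longer passed (all of *Acsl1*), 5 newly passed (*Acsl3* and *Cpt1a*) and 0 changed sign. The number of genes called higher rose from 0 to 1, *Acsl3*, with at least 10 counts in every sample (log2 fold change 0.26, adjusted p = 0.0061) and ranged from 0 to 1 over the fits that leave out a mouse, the 1 without mouse 7. The number called lower was 21 with a limit of 1 on the absolute log2 fold change and 29 to 31 under the other alternatives. With that limit on the fold change, 36 of the related genes were lower and 5 higher. The share of all genes past that limit was not computed, so these counts and the 21 have no background beside them. Sign changed for *Epcam*, to 0.01 with at least 10 counts in every sample. The median over all genes tested moved from 0.02 to 0.12 with at least 10 counts in every sample and to 0.12 without mouse 3, while that of the 32 genes stayed between -1.23 and -1.04. At least 10 counts in every sample moved the share of higher among all calls from 46.2% to 57.0%, and leaving out mouse 3 to 55.5%.

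With no replicate block, 30 of the 32 genes were called lower and 0 higher, and the pairing changed no call among them. In fatty acid synthesis it was 3 higher in place of 5, and 64 of the related genes were lower and 11 higher in place of 65 and 13. In the pairs, without the pairing the difference between *Acadm* and *Acadl* (0.22) and that between *Ehhadh* and *Hsd17b4* (0.15) did not pass (exact permutation adjusted p = 0.0511 and 0.0565). The first also did not pass without any 1 of mice 1 to 6 or 8, and over all fits that leave out a mouse it was 0.18 to 0.29. With 7 mice the sign-flip test cannot give a p below 0.0156.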
